A study of Mus musculus with 20 samples.

Results

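The unfolded protein response and the integrated stress response, the programmes by which a cell adjusts to misfolded protein in the endoplasmic reticulum (ER) and to a lack of amino acids, were followed through 38 genes in BV-2, a microglial cell line of the mouse immortalized for culture. The genes were chosen by symbol: 8 transcription factors and other integrated stress response (ISR) factors, 9 genes of amino acid and one-carbon metabolism, 4 stress sensors with the transcription factor Xbp1, 10 ER chaperones and co-chaperones, 3 ER protein disulfide isomerases and 3 genes of ER-associated degradation (ERAD). The choice was made with earlier results of these data known, so counts by role beside the share of all genes are descriptive. All 38 were found among the 56941 gene IDs of the count table, and all 38 passed the filter on low counts, which left 13755 genes for testing. The lowest count of any of them in a library was 21, for Chac1 in a wild-type IFNγ library.

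Poly(A)-enriched RNA was sequenced from 4 groups of 5 libraries, 20 in all: RGS10 knockout cells with interferon gamma (IFNγ), wild-type cells with IFNγ, knockout cells with vehicle and wild-type cells with vehicle, where vehicle was medium alone. IFNγ, the cytokine that activates macrophages and microglia, was given at 10 ng/mL, and treatment lasted 48 h in all groups. Rgs10 encodes a regulator of G protein signalling, and the series title ties it to migration of these cells. Within each group replicates 1 to 3 belonged to batch 1, replicate 4 to batch 2 and replicate 5 to batch 3, and the labels do not say what a batch shared. How the knockout was made, and whether it is 1 clone, is not given in the sources used here. Loss of RGS10 and other differences between the lines cannot be told apart.

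Separate sensors respond to misfolded protein in the ER lumen. The kinase PERK (Eif2ak3) phosphorylates the initiation factor eIF2α, IRE1α (Ern1) splices the mRNA of Xbp1, and ATF6 is cut to release a transcription factor. XBP1 and ATF6 raise chaperones, isomerases and ERAD genes. Phosphorylated eIF2α, which also follows GCN2 (Eif2ak4) when amino acids run short, lowers general translation but favours translation of ATF4, whose targets include Ddit3, Trib3, Asns and genes of serine and one-carbon metabolism. Counts per gene show neither the splicing of Xbp1 nor the translation of ATF4. In bulk RNA a change in the share of cells that express a gene and a change of its level within cells cannot be told apart.

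Total counts ran from 15866749 to 29157740 per library. Levels are given as CPM, the read count relative to the size of the library, with sizes scaled by the trimmed mean of M values (TMM), and values of 5 libraries are listed in the order of replicates 1 to 5, so that the first 3 are batch 1 and the others batches 2 and 3. Rgs10 stood at 22.6 to 34.6 CPM in knockout vehicle libraries, against 55.1 to 73.0 CPM in wild-type vehicle libraries, but at 15.5 to 50.5 CPM in knockout IFNγ libraries, against 22.2 to 49.97 CPM in wild-type IFNγ libraries. The difference was −1.17 ± 0.17 log2 under vehicle and −0.33 ± 0.17 log2 with IFNγ (edgeR adjusted p = 3.23e-05 and 0.134), and with the edited site unknown its RNA is a weak check of the labels. All 12 markers of microglia and macrophages reached 1 CPM or more in every group mean, while Aqp4 and Mog, markers of astrocytes and oligodendrocytes, had no read. The labels number the libraries of a group as biological replicates without saying whether they came from separate cultures, so that p-values rest on the spread between these libraries. For edgeR this is the spread left after the batch term. The 4 IFNγ libraries of batches 2 and 3 stood apart from the rest in Malat1, a nuclear RNA that serves as a sign of RNA quality. Malat1 was at 1446 and 1004 CPM of plain totals in knockout and 1514.5 and 955 CPM in wild-type cells, against at most 386 CPM in any other library. Within batch 1 it stood at 55.9 to 62.7 CPM in knockout IFNγ libraries and 355 to 386 CPM in wild-type IFNγ libraries, and in vehicle libraries it was at most 166 CPM, so that this sign also differs between the lines within batch 1. The mitochondrial mt-Co1, also listed as a sign of RNA quality, did not single out the 4 libraries. In batch 2 vehicle libraries it was at 4621 CPM of plain totals in knockout and 5040 CPM in wild-type cells, against 439 to 1458 CPM in batch 1 vehicle libraries. The 4 libraries had 8299 and 4166 CPM in knockout and 3798 and 3832 CPM in wild-type cells. These 4 libraries also had TMM factors of 0.892 and 0.879 in knockout and 0.635 and 0.764 in wild-type cells, against 1.01 or more in all others. A lower factor raises the CPM listed for a library. Their 10 genes with most reads took 9.46% to 17.1% of counts, against at most 7.86% elsewhere. Neat1, also listed as a sign of RNA quality, was at 507 CPM of plain totals or more in them and at most 270 CPM elsewhere. Counts by role and of the other pathway genes are also given without the 4 libraries. The part of RNA quality in any result, under vehicle or with IFNγ, was not tested. Without the 4 libraries more genes passed in every comparison, namely 47.1% of all genes with IFNγ in knockout cells and 66.7% in wild-type cells, 53.8% between the lines under vehicle and 58.5% with IFNγ, and 38% for the difference of the 2 responses.

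Short promoter sequences show which known stress elements the genes carry. RefSeq promoter windows of 300 bases on GRCm38.p6 (250 before the start and 50 after it) were at hand for 34 of the 38 genes, and Atf6, Hyou1, Manf and Slc7a5 were not searched. The ER stress element (ERSE), bound by ATF6 with NF-Y, was searched as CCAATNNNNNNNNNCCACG on both strands. It occurred in 7 of the 34 genes (20.6%), namely Calr, Canx, Creld2, Dnajc3, Hsp90b1, Hspa5 and Pdia6, and in 0.119% of all 32851 windows. By role these were 6 of the 8 chaperone genes searched and 1 of 3 isomerase genes. Windows of 5 of them are shown 5′ to 3′ along the gene's strand with the match in capitals. All 5 were called higher with IFNγ in at least 1 line, so they do not stand for the whole set. Not shown are Canx, which fell with IFNγ in both lines, and Hsp90b1, which rose in knockout cells alone. The windows were read from chr2:34772000-34772068 (plus strand) for Hspa5, chr15:88819495-88819563 (plus strand) for Creld2, chr14:118937802-118937870 (plus strand) for Dnajc3, chr8:84847050-84847118 (minus strand) for Calr and chr12:17266466-17266534 (plus strand) for Pdia6.
Hspa5: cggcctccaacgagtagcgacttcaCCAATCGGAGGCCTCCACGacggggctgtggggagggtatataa
Creld2: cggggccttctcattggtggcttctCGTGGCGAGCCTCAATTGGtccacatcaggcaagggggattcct
Dnajc3: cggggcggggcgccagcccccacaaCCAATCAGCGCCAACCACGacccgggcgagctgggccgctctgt
Calr: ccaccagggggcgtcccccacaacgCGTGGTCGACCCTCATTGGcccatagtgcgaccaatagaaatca
Pdia6: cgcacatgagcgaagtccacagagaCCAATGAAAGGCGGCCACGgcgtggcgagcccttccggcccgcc
In Creld2 and Calr the element lies on the opposite strand and so reads as its reverse complement. The ERSE of Hspa5 begins 65 bases upstream of the annotated start.

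The composite element of ATF4 with its partner C/EBP factors was searched as TTNCATCA on both strands. It occurred in 6 of the 34 genes (17.6%), namely Asns, Atf3, Chac1, Herpud1, Pck2 and Trib3, and in 3.97% of all windows. No window of the 34 genes held both this element and an ERSE. The shorter core TGACGTG of the XBP1 and ATF6 element was found in Hspa5 alone of the 34 genes (2.94%), against 2.01% of all windows, and does not overlap the ERSE there. Windows of 4 genes with the ATF4 element are shown in the same way, from chr2:119351024-119351081 (plus strand) for Chac1, chr1:191183411-191183468 (minus strand) for Atf3, chr14:55540138-55540195 (plus strand) for Pck2 and chr8:94386292-94386349 (plus strand) for Herpud1.
Chac1: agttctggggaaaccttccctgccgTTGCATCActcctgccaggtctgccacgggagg
Atf3: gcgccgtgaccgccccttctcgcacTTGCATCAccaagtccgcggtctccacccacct
Pck2: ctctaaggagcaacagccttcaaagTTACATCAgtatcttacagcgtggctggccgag
Herpud1: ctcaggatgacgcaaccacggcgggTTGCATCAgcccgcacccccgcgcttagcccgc
A match describes the letters and says nothing of binding in these cells.

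IFNγ moved the 38 genes in both directions in both lines, and the roles moved apart. ER chaperones were mostly higher in both lines, ISR factors mostly higher in wild-type cells, while in knockout cells 3 of the 8 rose and 2 fell, and genes of serine, one-carbon and amino acid metabolism mostly lower in both. In knockout cells 13 of the 38 rose, 12 fell and 13 did not pass the test, with a median of 0.14 log2. Over all 13755 genes 43.2% passed in this comparison, 21.4% higher and 21.8% lower, around a median of −0.02 log2. In wild-type cells 16 rose, 9 fell and 13 did not pass, with a median of 0.22 log2, where 58.9% of all genes passed, 29% higher and 29.9% lower, around a median of 0.01 log2. Tests were edgeR's quasi-likelihood F test with batch as a term, and a gene is called where p stays under 0.05 after Benjamini-Hochberg adjustment over all genes. Between the lines, 9 genes rose in both, 9 fell in both, 7 passed in knockout cells alone, 7 in wild-type cells alone, none had opposite calls and 6 passed in neither, which by itself does not show that the responses differ. These patterns were not counted over all genes. Agreement between the lines is therefore not shown to be particular to the 38. On plain library totals, without TMM scaling, the median of all genes shifted to −0.16 log2 in knockout and −0.21 log2 in wild-type cells, and rises made up 38.5% and 36.7% of calls, against 49.5% and 49.2% with TMM.

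**Figure D1:**
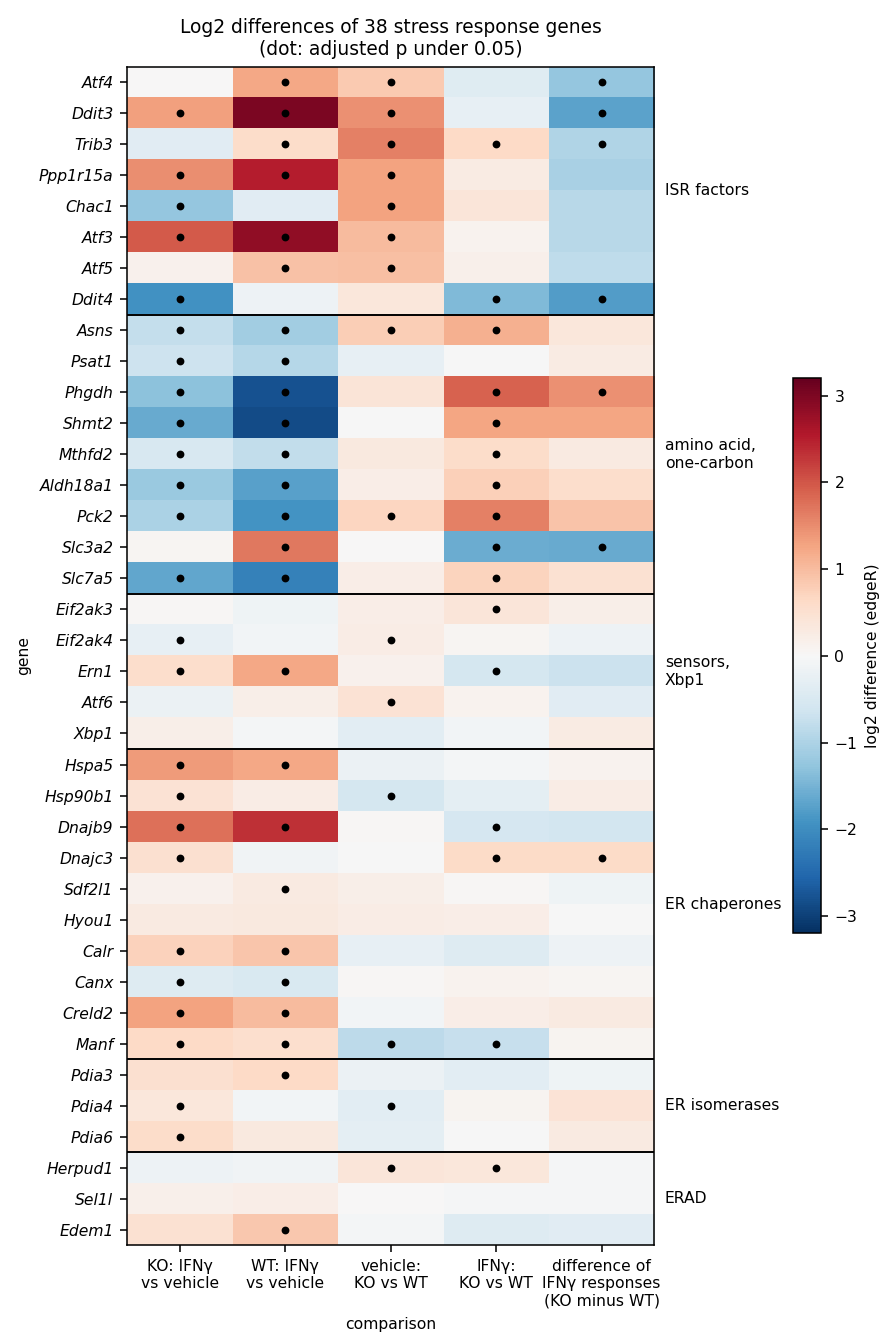
Log2 differences of the 38 genes (rows, grouped by role) in the 5 comparisons (columns), coloured from blue (lower in the first-named group) to red (higher), with a dot where edgeR's adjusted p was under 0.05. The amino acid and one-carbon genes are blue in both IFNγ columns except Slc3a2, while 7 of the 8 ISR factors carry a dot in red where knockout and wild-type vehicle cells are compared.

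Among the ISR factors, the genes for the transcription factors CHOP (Ddit3) and ATF3 and for GADD34 (Ppp1r15a), which directs a phosphatase to eIF2α, rose with IFNγ in both lines. In wild-type cells 6 of the 8 ISR factors rose and none fell, with a median of 1.10 log2. In knockout cells 3 rose, 2 fell and 3 did not pass, with a median of 0.08 log2. The counts without the 4 IFNγ libraries of batches 2 and 3 were 4 higher and 2 lower in knockout cells and 6 higher and 2 lower in wild-type cells, where 47.1% and 66.7% of all genes passed.

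Ddit3 stood at 65.4, 60.8, 61.6, 146 and 74.8 CPM in knockout IFNγ libraries, against 34.6, 34.0, 32.6, 19.2 and 28.4 CPM in knockout vehicle libraries. Wild-type libraries gave 62.9, 67.8, 61.8, 197 and 118 CPM with IFNγ, against 8.83, 9.54, 9.36, 12.4 and 18.7 CPM with vehicle. Every IFNγ library lay above every vehicle library of its line, and the batch 2 library was the highest of both IFNγ groups. The fitted rise was 1.30 ± 0.26 log2 (SE) in knockout cells (edgeR adjusted p = 0.000567) and 3.02 ± 0.28 log2 in wild-type cells (adjusted p = 3.89e-08). Exons of Ddit3 overlap those of Mars on the opposite strand in GENCODE vM21, and whether reads were counted by strand is not given in the sources used here.

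Atf3 stood at 411, 378, 430.2, 1829 and 1245 CPM in knockout IFNγ libraries, against 179.6, 174, 163, 180.1 and 191 CPM in knockout vehicle libraries. Levels in wild-type cells were 481, 468, 469.6, 1216 and 1031 CPM with IFNγ, against 72.4, 71.1, 81.0, 111 and 142 CPM with vehicle. The groups did not overlap in either line, and the libraries of batches 2 and 3 lay above those of batch 1 in both IFNγ groups. Atf3 rose by 1.95 ± 0.24 log2 in knockout cells (edgeR adjusted p = 4.29e-06) and by 2.85 ± 0.25 log2 in wild-type cells (adjusted p = 1.75e-08). Ppp1r15a followed, at 1.48 ± 0.24 log2 in knockout and 2.52 ± 0.25 log2 in wild-type cells (edgeR adjusted p = 6.97e-05 and 7.98e-08), again with the batch 2 library highest in both IFNγ groups.

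Atf4, the central factor of the response, was called with IFNγ in wild-type cells only. It stood at 615, 587, 591, 514 and 573 CPM in knockout IFNγ libraries, against 654, 638, 613, 420.0 and 561 CPM in knockout vehicle libraries. Wild-type cells had 655, 664, 673, 732 and 1026 CPM with IFNγ, against 382, 361, 431, 228 and 215 CPM with vehicle. The knockout groups overlapped and the wild-type groups did not. The fitted differences were 0.01 ± 0.17 log2 in knockout cells (edgeR adjusted p = 0.967) and 1.25 ± 0.17 log2 in wild-type cells (adjusted p = 4.55e-06). Trib3, a pseudokinase induced by ATF4 and CHOP, and Atf5, a related transcription factor, also rose in wild-type cells, by 0.59 ± 0.18 and 0.95 ± 0.20 log2 (edgeR adjusted p = 0.00919 and 0.000442). In knockout cells their differences were −0.37 and 0.14 log2 (edgeR adjusted p = 0.105 and 0.589). Atf5 was not stable across batches, at 1.36, −0.38 and 0.91 log2 in batches 1, 2 and 3 of wild-type cells. Its exons overlap those of Il4i1 and Nup62 on the opposite strand in GENCODE vM21. With the strand setting unknown, reads of these neighbours may be among its counts, which was not tested.

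The 2 ISR factors that fell with IFNγ, Ddit4 and Chac1, were called in knockout cells. Ddit4, an inhibitor of mTORC1 signalling, stood at 4.54, 4.68, 3.98, 18.8 and 9.01 CPM in knockout IFNγ libraries, against 19.2, 19.96, 19.3, 35.0 and 30.1 CPM in knockout vehicle libraries. In wild-type cells it stood at 7.92, 7.17, 5.62, 90.1 and 44.8 CPM with IFNγ, against 8.83, 8.94, 10.7, 68.5 and 51.6 CPM with vehicle. Levels in batches 2 and 3 were several times those in batch 1 in both wild-type groups, and the knockout groups just failed to overlap. The difference was −1.93 ± 0.34 log2 in knockout cells (edgeR adjusted p = 0.000167) and −0.16 ± 0.32 log2 in wild-type cells (adjusted p = 0.699). Chac1, which degrades glutathione, stood at 12.6, 11.9, 8.77, 4.43 and 1.74 CPM in knockout IFNγ libraries, against 21.034, 21.003, 21.1, 8.75 and 15.6 CPM in knockout vehicle libraries. It was lowest in the batch 3 IFNγ library, and the batch 2 vehicle library lay within the IFNγ range. Chac1 fell, at −1.24 ± 0.30 log2 in knockout cells (edgeR adjusted p = 0.00234), with −0.93, −0.97 and −3.10 log2 in batches 1, 2 and 3, and stood at −0.35 log2 in wild-type cells (adjusted p = 0.327).

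Under vehicle, the comparison of knockout with wild-type cells asks how the lines differ before IFNγ, and most ISR factors were higher in knockout cells. Of the 8, 7 were higher in knockout cells and none lower, with a median of 1.14 log2, and the same 7 were higher in each of the 3 batches. Over all 38 genes 21 kept 1 sign in the 3 batches of this comparison, against 57.2% of all genes. Of all 38 genes 12 were higher, 3 lower and 23 did not pass, with a median of 0.20 log2, where 27.3% of all genes passed, 12.5% higher and 14.8% lower, around a median of 0.03 log2. The 7 were Trib3 at 1.60, Ddit3 at 1.45, Ppp1r15a at 1.30, Chac1 at 1.28, Atf3 at 1.00, Atf5 at 0.96 and Atf4 at 0.84 log2, with SE from 0.17 to 0.30 and edgeR adjusted p from 1.8e-06 for Trib3 to 0.00308 for Atf3. The eighth, Ddit4, was at 0.37 ± 0.33 log2 (adjusted p = 0.44) and changed sign between batches, with 1.04, −0.97 and −0.78 log2. In batch 1 alone all 8 were higher, where 58.4% of all genes passed, and in batches 2 and 3 alone, with 2 libraries a group, 2 were, where 5.93% of all genes passed.

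Trib3 stood at 174, 164, 160.3, 84.4 and 150.2 CPM in knockout vehicle libraries, against 54.8, 51.5, 60.3, 40.7 and 31.5 CPM in wild-type vehicle libraries. With IFNγ it stood at 147, 152, 147, 76.6 and 57.1 CPM in knockout cells, against 76.8, 75.3, 79.2, 41.4 and 87.6 CPM in wild-type cells. Under vehicle every knockout library lay above every wild-type library, and with IFNγ the groups overlapped, since the knockout libraries of batches 2 and 3 lay within the wild-type range. The vehicle difference was 1.60 ± 0.19 log2 (edgeR adjusted p = 1.8e-06). An exact permutation test of its log2 CPM, without regard to batch, gave a two-sided p of 0.00794, the lowest value open to 5 libraries a group. Groups without overlap always give this value, so it adds nothing to the lack of overlap. For Atf4 the vehicle groups overlapped in 1 library each, the batch 2 knockout library at 420.0 CPM and a batch 1 wild-type library at 431 CPM, at 0.84 ± 0.17 log2 (edgeR adjusted p = 0.000792). Of the 38 genes 11 had vehicle groups that did not overlap, 10 higher and 1 lower in knockout cells, against 24.9% of all genes.

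**Figure D2:**
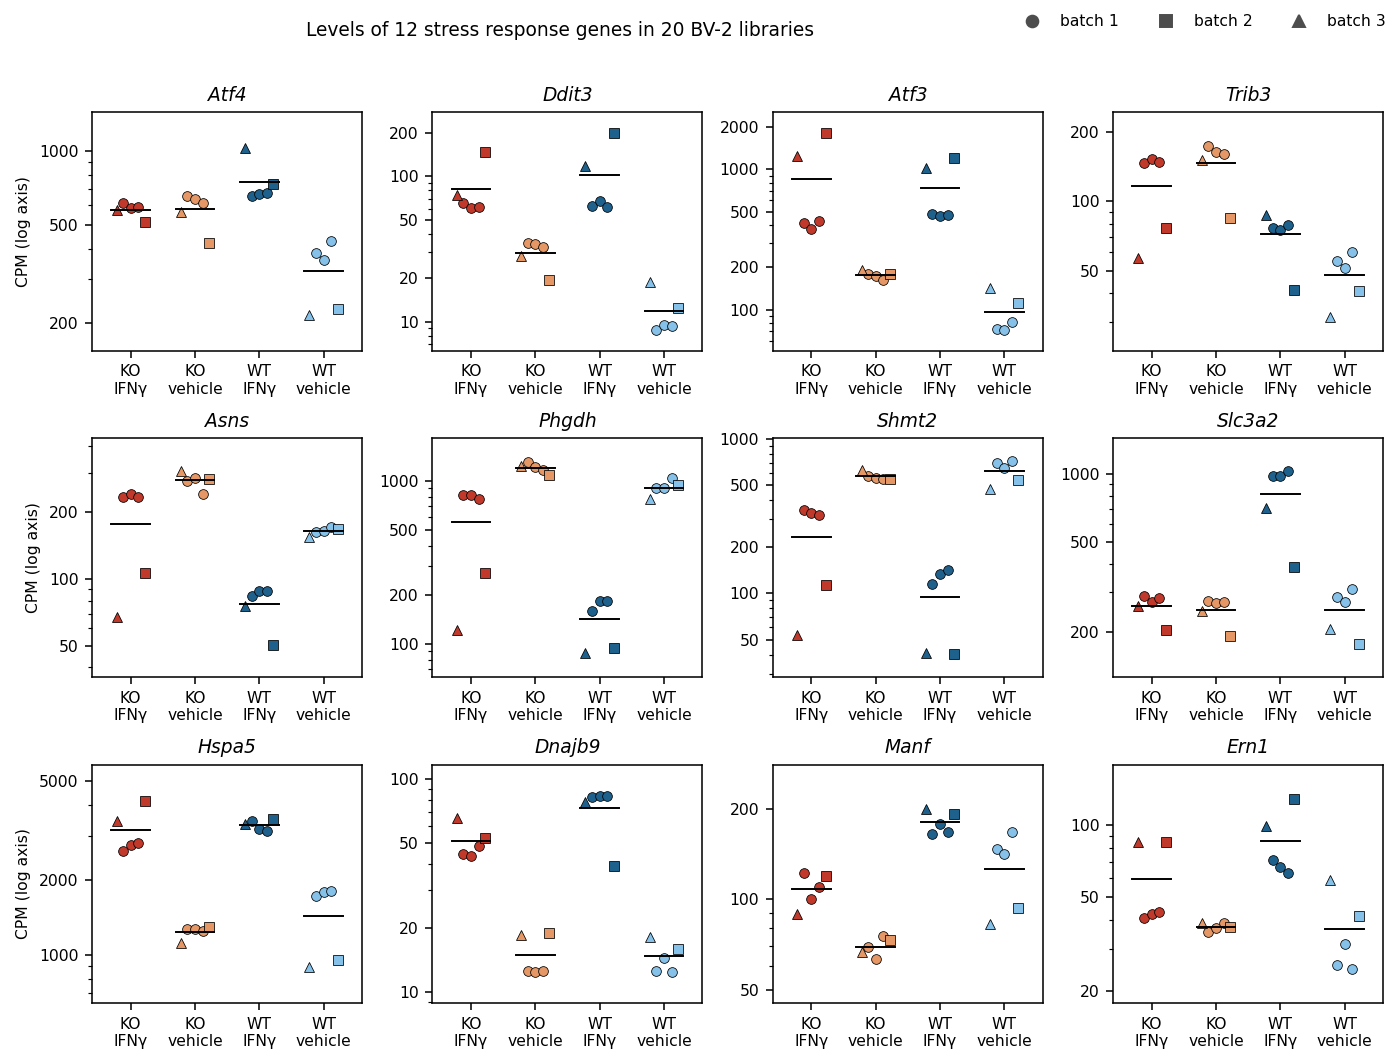
Levels of 12 genes in the 20 libraries, in CPM on a logarithmic axis, for knockout and wild-type cells with IFNγ or vehicle, where circles, squares and triangles are libraries of batches 1, 2 and 3 and the line is the mean of 5. Ddit3 and Atf3 are higher with IFNγ in both lines, Atf4 with IFNγ only in wild-type cells, and Phgdh and Shmt2 lower with IFNγ, least so in the 3 knockout libraries of batch 1.

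The genes of amino acid and one-carbon metabolism fell together with IFNγ. In knockout cells 8 of 9 fell and none rose, with a median of −1.01 log2, and in wild-type cells 8 fell and 1 rose, with a median of −1.73 log2. The 8 were the same in both lines: Phgdh and Psat1 of serine synthesis, Shmt2 and Mthfd2 of mitochondrial one-carbon metabolism, Asns, which makes asparagine, Aldh18a1 of proline synthesis, Pck2, the mitochondrial phosphoenolpyruvate carboxykinase, and Slc7a5, the light chain of a large neutral amino acid transporter. Without the 4 IFNγ libraries of batches 2 and 3, 7 fell in knockout and 8 in wild-type cells, where 47.1% and 66.7% of all genes passed. With no batch term 4 of the 9 fell in knockout cells, where 28.3% of all genes passed.

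Shmt2 stood at 345, 329, 319, 112 and 53.6 CPM in knockout IFNγ libraries, against 571, 558, 546, 552 and 629 CPM in knockout vehicle libraries. Wild-type libraries gave 114, 134, 142, 40.2 and 41.2 CPM with IFNγ, against 691, 645, 716, 538 and 474 CPM with vehicle. Groups did not overlap in either line, and in knockout cells the libraries of batches 2 and 3 lay far below those of batch 1. The fitted differences were −1.60 ± 0.32 log2 in knockout cells (edgeR adjusted p = 0.000481) and −2.87 ± 0.32 log2 in wild-type cells (adjusted p = 4.89e-07).

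Phgdh, the first enzyme of serine synthesis, stood at 822, 823, 779, 272 and 122 CPM in knockout IFNγ libraries, against 1302, 1224, 1161, 1081 and 1232 CPM in knockout vehicle libraries. Wild-type cells had 159, 182, 183, 94.8 and 87.6 CPM with IFNγ, against 909, 899, 1035, 941 and 772 CPM with vehicle. The pattern was that of Shmt2, with batch 1 knockout cells keeping most of their vehicle level and all other IFNγ libraries low. Phgdh fell, at −1.31 ± 0.29 log2 in knockout (edgeR adjusted p = 0.00134) and −2.78 ± 0.30 log2 in wild-type cells (adjusted p = 2.58e-07). Slc7a5 stood at 239, 265, 243, 45.4 and 42.2 CPM in knockout IFNγ libraries, against 446, 454, 454, 245 and 396 CPM in knockout vehicle libraries, and at 133, 138, 134, 41.6 and 30.8 CPM in wild-type IFNγ libraries, against 519, 551, 501, 211 and 192 CPM in wild-type vehicle libraries. In knockout cells the batch 2 vehicle library lay within the batch 1 IFNγ range, and within every batch IFNγ was lower. For Slc7a5 and the other metabolic genes, knockout cells first, the log2 differences were −1.67 and −2.15 for Slc7a5, −1.01 and −1.92 for Pck2, −1.18 and −1.73 for Aldh18a1, −0.75 and −1.12 for Asns, −0.67 and −0.92 for Psat1, and −0.51 and −0.79 for Mthfd2. Adjusted p of these 6 lay between 6.57e-05 and 0.0356 in knockout and between 1.34e-06 and 0.00246 in wild-type cells in edgeR. Psat1 in wild-type cells went against the others in batch 2, at 0.06 log2, where 1 IFNγ library reached 701 CPM.

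Slc3a2 was the exception. It encodes the heavy chain that carries Slc7a5 to the cell surface, and stood at 288, 271, 281, 204 and 259 CPM in knockout IFNγ libraries, against 272, 269, 272, 191 and 246 CPM in knockout vehicle libraries. Levels in wild-type cells were 983, 985, 1029, 388 and 706 CPM with IFNγ, against 286, 272, 309, 176 and 205 CPM with vehicle. The wild-type groups did not overlap, and both knockout groups lay within the range of wild-type vehicle libraries. The difference was 0.06 ± 0.13 log2 in knockout cells (edgeR adjusted p = 0.716) and 1.68 ± 0.13 log2 in wild-type cells (adjusted p = 3.69e-09).

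Knockout against wild-type cells with IFNγ asks whether the lines differ under the cytokine. Of the 38 genes 11 were higher, 5 lower and 22 did not pass, with a median of 0.10 log2, where 39% of all genes passed, 20% higher and 19% lower, around a median of 0.01 log2. On plain totals rises made up 62.3% of calls over all genes, against 51.4% with TMM, and the median moved to 0.13 log2. The metabolic genes took 7 of the 11: Phgdh at 1.89 ± 0.29, Pck2 at 1.61 ± 0.24, Shmt2 at 1.25 ± 0.31, Asns at 1.14 ± 0.23, Aldh18a1 at 0.76 ± 0.27, Slc7a5 at 0.70 ± 0.26 and Mthfd2 at 0.60 ± 0.19 log2, with edgeR adjusted p from 3.34e-05 for Pck2 to 0.0362 for Slc7a5. Slc3a2 was lower, at −1.59 ± 0.13 log2 (adjusted p = 1.82e-08). Most of the higher values came from batch 1. The median of the 9 genes was 1.35 log2 in batch 1, 0.21 in batch 2 and −0.17 in batch 3, and only Phgdh, Shmt2 and Slc7a5 were higher in all 3 batches and Slc3a2 lower in all 3. In batches 2 and 3 alone none of the 9 was called higher and 2 were called lower, where 13.4% of all genes passed, and Aldh18a1 and Mthfd2 turned to −0.65 and −0.13 log2. Under vehicle, Asns and Pck2 alone of the 9 were called, both higher in knockout cells, at 0.78 ± 0.22 and 0.70 ± 0.24 log2 (edgeR adjusted p = 0.0125 and 0.0322). Of 19 alternative settings the vehicle call was lost in 2 for Asns and 9 for Pck2, and the call of Slc7a5 with IFNγ was lost in 10.

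Asns stood at 236, 242, 235, 107 and 67.7 CPM in knockout IFNγ libraries, against 83.7, 88.2, 88.7, 50.7 and 76.0 CPM in wild-type IFNγ libraries. Under vehicle it stood at 278, 286, 243, 284 and 308 CPM in knockout cells, against 163, 165, 172, 168 and 155 CPM in wild-type cells. With vehicle the groups did not overlap. With IFNγ the batch 3 knockout library lay within the wild-type range, at 1.45, 1.07 and −0.17 log2 in batches 1, 2 and 3.

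**Figure D3:**
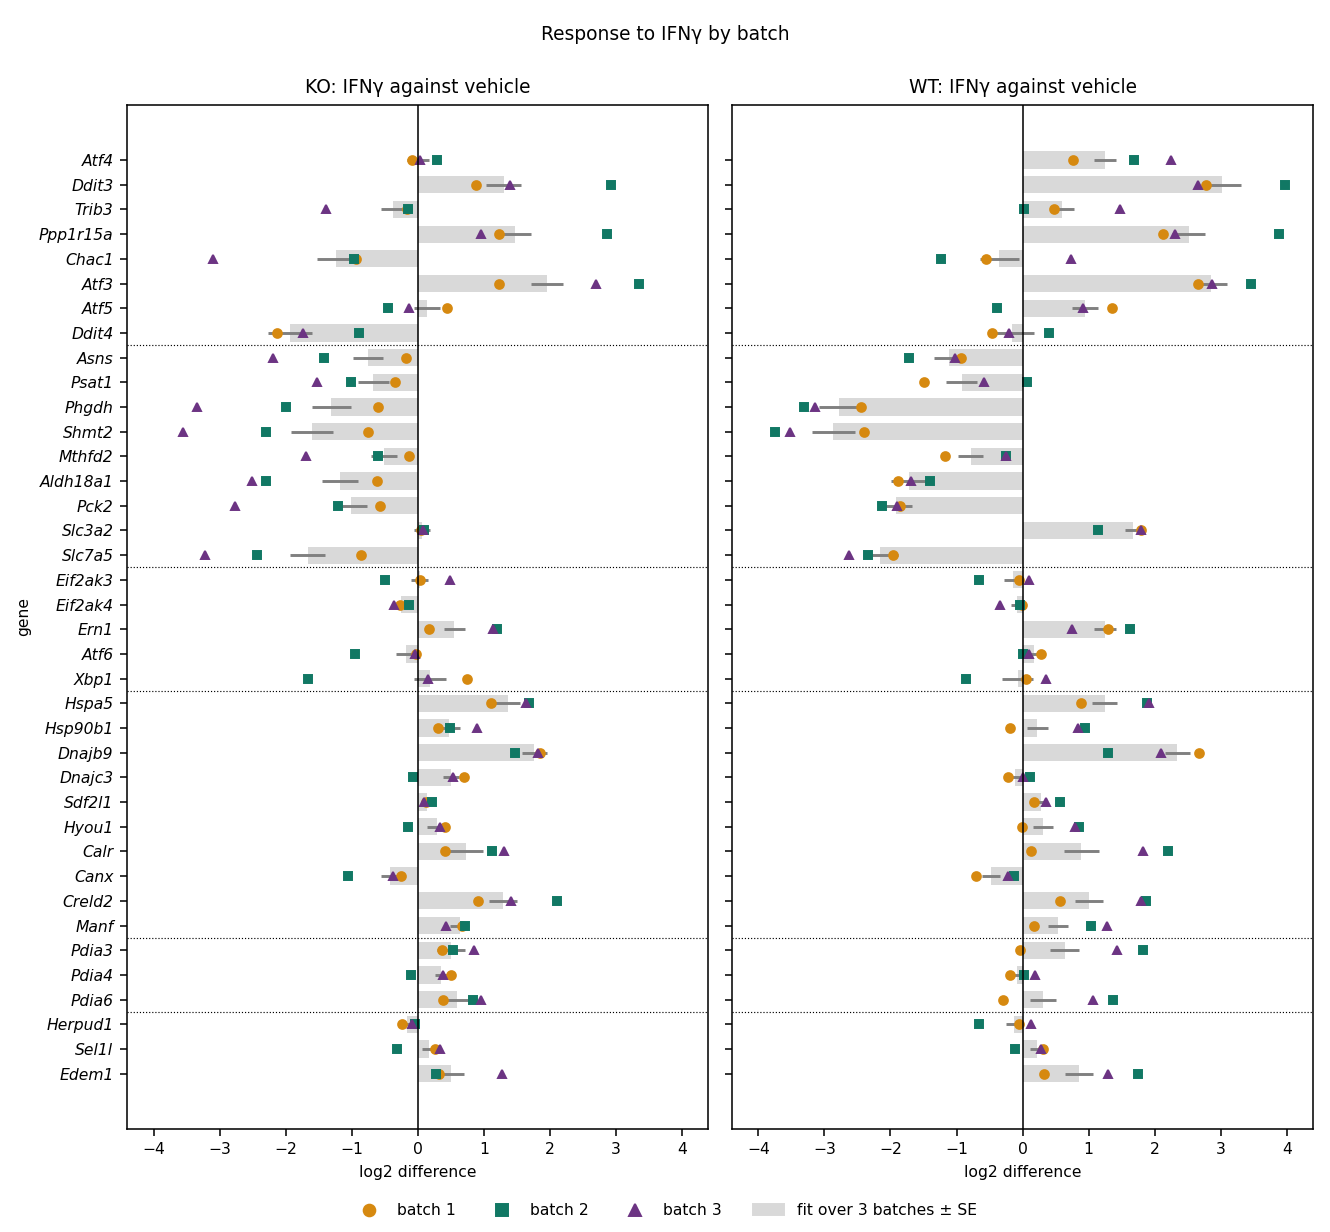
Log2 difference of IFNγ minus vehicle for the 38 genes in knockout cells (left) and wild-type cells (right), with grey bars for the fit over all batches ± SE and markers for batches 1, 2 and 3. In knockout cells the falls of Phgdh, Shmt2, Slc7a5 and Pck2 deepen from batch 1 to batches 2 and 3, and in wild-type cells the 3 batches lie closer together for these genes.

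By batch, the 9 metabolic genes had medians of −0.56, −1.41 and −2.50 log2 with IFNγ in batches 1, 2 and 3 of knockout cells, and of −1.85, −1.73 and −1.69 log2 in wild-type cells. ISR factors had medians of 0.18, 0.08 and −0.05 log2 in knockout cells and of 1.06, 1.04 and 1.86 log2 in wild-type cells. ER chaperones had 0.54, 0.60 and 0.72 log2 in knockout cells and 0.15, 0.99 and 1.06 log2 in wild-type cells. The sign was the same in all 3 batches for 30 of the 38 genes in knockout cells, against 60% of all genes, and for 23 of 38 in wild-type cells, against 62.8% of all genes. With IFNγ between the lines 18 of 38 kept 1 sign, against 47% of all genes. Of the genes called with IFNγ the sign held in all 3 batches for 23 of 25 in knockout and 22 of 25 in wild-type cells. The calls rest on the same libraries, and the share among all called genes was not computed. These 2 counts therefore do not measure how stable the 38 genes were.

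Of the 4 sensors and Xbp1, Ern1 rose with IFNγ in both lines, Eif2ak4 fell in knockout cells, and the others did not pass. Ern1 stood at 40.6, 42.2, 42.9, 85.3 and 85.2 CPM in knockout IFNγ libraries, against 35.6, 36.7, 38.9, 37.1 and 38.7 CPM in knockout vehicle libraries. In wild-type cells it stood at 71.5, 66.9, 62.6, 128 and 99.3 CPM with IFNγ, against 25.7, 31.7, 24.9, 41.5 and 58.7 CPM with vehicle. IFNγ libraries lay above vehicle libraries in both lines, by a narrow margin in batch 1 of knockout cells. Ern1 rose by 0.55 ± 0.16 log2 in knockout cells (edgeR adjusted p = 0.00919) and by 1.25 ± 0.16 log2 in wild-type cells (adjusted p = 2.3e-06), and with IFNγ it was −0.56 ± 0.16 log2 in knockout against wild-type cells (adjusted p = 0.00815). Under vehicle its difference between the lines was 0.13 log2 (adjusted p = 0.593).

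Xbp1, the substrate of IRE1α, was not called in any of the 5 comparisons. It stood at 188, 198, 191, 76.7 and 225 CPM in knockout IFNγ libraries, against 124, 118, 105, 243 and 202 CPM in knockout vehicle libraries. Wild-type cells had 181, 173, 170.0, 145 and 283 CPM with IFNγ, against 172, 161, 176, 263 and 220.2 CPM with vehicle. The knockout response ran against itself, higher with IFNγ in batch 1 at 0.74 log2 and lower in batch 2 at −1.66 log2, and the fit gave 0.19 ± 0.24 log2 (edgeR adjusted p = 0.546). The other differences of Xbp1 were −0.07 ± 0.24 log2 with IFNγ in wild-type cells (adjusted p = 0.809), −0.35 ± 0.24 log2 between the lines under vehicle (adjusted p = 0.302) and −0.08 ± 0.24 log2 between them with IFNγ (adjusted p = 0.814).

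Atf6 was higher in knockout cells under vehicle, at 224, 228, 222, 205 and 221 CPM, against 149.9, 148, 139.5, 173 and 179 CPM in wild-type cells. The groups did not overlap, and the fit gave 0.47 ± 0.14 log2 (edgeR adjusted p = 0.0162). With IFNγ its difference was −0.18 log2 in knockout cells (adjusted p = 0.311), where the batch 2 library stood at 106 CPM against 213 to 226 CPM in the other 4, 0.18 log2 in wild-type cells (adjusted p = 0.281) and 0.11 log2 between the lines with IFNγ (adjusted p = 0.559). Eif2ak4 fell with IFNγ in knockout cells, at −0.26 ± 0.09 log2 and was under vehicle higher in knockout cells, at 0.24 ± 0.09 log2 (adjusted p by edgeR = 0.0192 and 0.0447). The call under vehicle was lost in 15 of 19 alternative settings, and there the groups overlapped, with an exact two-sided permutation p of 0.0873. It stood at −0.09 log2 with IFNγ in wild-type cells and 0.06 log2 between the lines with IFNγ (adjusted p = 0.396 and 0.584). Eif2ak3 was called once, higher in knockout cells with IFNγ by 0.39 ± 0.13 log2 (adjusted p = 0.0243). That call was lost in 8 of 19 alternative settings, and the groups overlapped, with an exact two-sided permutation p of 0.151. The difference of Eif2ak3 was 0.03 log2 with IFNγ in knockout cells, −0.15 log2 in wild-type cells and 0.22 log2 between the lines under vehicle (adjusted p = 0.887, 0.345 and 0.245).

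Among ER chaperones and co-chaperones 7 of 10 rose and 1 fell with IFNγ in knockout cells, with a median of 0.57 log2, and 6 rose and 1 fell in wild-type cells, with a median of 0.43 log2. Hspa5, the main ER chaperone BiP, Dnajb9, its co-chaperone ERdj4, Creld2, Calr and Manf rose in both lines. Without the 4 IFNγ libraries of batches 2 and 3, 6 rose and 1 fell in knockout cells and 4 rose and 1 fell in wild-type cells, where 47.1% and 66.7% of all genes passed.

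Hspa5 stood at 2630.3, 2773, 2831, 4166 and 3479 CPM in knockout IFNγ libraries, against 1275, 1278, 1244, 1294 and 1117 CPM in knockout vehicle libraries. Wild-type libraries gave 3474, 3220.4, 3144, 3528 and 3378 CPM with IFNγ, against 1722, 1789.7, 1804, 952 and 894 CPM with vehicle. All IFNγ libraries lay above all vehicle libraries of either line, and the wild-type vehicle libraries of batches 2 and 3 were the lowest. The rise was 1.36 ± 0.19 log2 in knockout cells (edgeR adjusted p = 1.55e-05) and 1.24 ± 0.19 log2 in wild-type cells (adjusted p = 1.73e-05). Between the lines Hspa5 differed by −0.19 ± 0.19 log2 under vehicle and −0.07 ± 0.19 log2 with IFNγ (adjusted p = 0.483 and 0.787).

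Dnajb9 had the largest fitted rise of the chaperone group in both lines. It stood at 44.5, 43.6, 48.5, 52.8 and 66.1 CPM in knockout IFNγ libraries, against 12.5, 12.4, 12.6, 18.9 and 18.6 CPM in knockout vehicle libraries. Levels in wild-type cells were 82.7, 83.6, 83.5, 39.1 and 78.4 CPM with IFNγ, against 12.5, 14.4, 12.4, 15.9 and 18.2 CPM with vehicle. Groups did not overlap in either line, and the batch 2 wild-type IFNγ library was low for its group. Dnajb9 rose by 1.77 ± 0.18 log2 in knockout cells (edgeR adjusted p = 4.1e-07) and by 2.34 ± 0.19 log2 in wild-type cells (adjusted p = 6.37e-09). With IFNγ it was lower in knockout than in wild-type cells, at −0.55 ± 0.18 log2 (adjusted p = 0.0194), but by batch this was −0.87, 0.44 and −0.25 log2.

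Creld2, an ER chaperone of disulfide-rich proteins, stood at 90.5, 86.6, 85.01, 179 and 102 CPM in knockout IFNγ libraries, against 45.1, 47.2, 46.6, 41.5 and 38.3 CPM in knockout vehicle libraries. In wild-type cells it stood at 84.3, 80.9, 90.9, 126 and 85.6 CPM with IFNγ, against 56.6, 54.8, 62.2, 34.7 and 24.6 CPM with vehicle. The groups did not overlap in either line, and the batch 2 library was the highest of both IFNγ groups. Creld2 rose by 1.29 ± 0.21 log2 in knockout and 1.01 ± 0.21 log2 in wild-type cells (edgeR adjusted p = 8.41e-05 and 0.000438). Calr, the lectin chaperone calreticulin, which also serves the loading of MHC class I, rose by 0.73 ± 0.26 and 0.89 ± 0.26 log2 (adjusted p = 0.027 and 0.00687), most of it outside batch 1 in wild-type cells, where the batches gave 0.13, 2.21 and 1.82 log2. Its membrane-bound relative Canx, calnexin, fell in both lines, at −0.42 ± 0.14 and −0.48 ± 0.14 log2 (adjusted p = 0.0191 and 0.00557). Hsp90b1, the ER member of the HSP90 family, rose in knockout cells by 0.47 ± 0.16 log2 and stood at 0.23 log2 in wild-type cells (adjusted p = 0.025 and 0.245). Sdf2l1, a partner of the BiP cycle, rose in wild-type cells by 0.28 ± 0.09 log2 (adjusted p = 0.0111). Hyou1, a nucleotide exchange factor for BiP, was not called in any comparison, with differences from −0.02 to 0.31 log2.

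Manf, a secreted ER stress factor that binds BiP, differed between the lines as well. It stood at 69.6, 63.1, 75.3, 73.0 and 66.7 CPM in knockout vehicle libraries, against 147, 142, 167, 93.7 and 82.6 CPM in wild-type vehicle libraries. With IFNγ it stood at 122, 100.2, 109.8, 119.9 and 89.5 CPM in knockout cells, against 165, 178, 167, 192 and 199.9 CPM in wild-type cells. Knockout libraries lay below wild-type libraries under both treatments. The difference was −0.84 ± 0.15 log2 under vehicle and −0.75 ± 0.15 log2 with IFNγ (edgeR adjusted p = 0.000254 and 0.000514), and IFNγ raised Manf by 0.63 ± 0.15 log2 in knockout and 0.54 ± 0.15 log2 in wild-type cells (adjusted p = 0.002 and 0.00423). The other chaperone lower in knockout cells under vehicle was Hsp90b1, at −0.57 ± 0.16 log2 (adjusted p = 0.0132). Manf shares exon sequence with 3 annotated neighbours in GENCODE vM21, among them Rbm15b on the same strand.

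Dnajc3, which encodes the co-chaperone p58IPK, an inhibitor of PERK, rose in knockout cells alone. It stood at 123, 123, 137, 70.8 and 82.5 CPM in knockout IFNγ libraries, against 77.8, 82.0, 75.9, 74.5 and 57.1 CPM in knockout vehicle libraries. Wild-type libraries gave 83.9, 81.9, 84.0, 57.8 and 46.5 CPM with IFNγ, against 98.9, 99.5, 92.2, 53.4 and 46.1 CPM with vehicle. The 3 batch 1 knockout IFNγ libraries were the highest of all 20, and the batch 2 IFNγ library lay within the knockout vehicle range. The differences were 0.51 ± 0.12 log2 in knockout cells, −0.11 ± 0.12 log2 in wild-type cells and 0.60 ± 0.12 log2 between the lines with IFNγ (edgeR adjusted p = 0.00209, 0.422 and 0.000527).

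Of the isomerases, Pdia6 and Pdia4 rose with IFNγ in knockout cells, by 0.59 ± 0.20 and 0.36 ± 0.10 log2 (edgeR adjusted p = 0.0197 and 0.00618), and Pdia3, which works with calnexin and calreticulin, rose in wild-type cells by 0.64 ± 0.22 log2 (adjusted p = 0.0173). No isomerase kept 1 sign over the 3 batches of wild-type cells, and Pdia3 there gave −0.03, 1.83 and 1.43 log2. Without the 4 IFNγ libraries of batches 2 and 3, 2 of the 3 isomerases were higher with IFNγ in knockout cells, and none was higher and 1 lower in wild-type cells. In this setting 47.1% of all genes passed in knockout and 66.7% in wild-type cells. Under vehicle Pdia4 was lower in knockout cells, at −0.34 ± 0.10 log2 (adjusted p = 0.0128). Among ERAD genes, Edem1, which marks misfolded glycoproteins for disposal, rose in wild-type cells by 0.85 ± 0.21 log2 (adjusted p = 0.00144) and stood at 0.50 ± 0.20 log2 in knockout cells (adjusted p = 0.0537). Without the 4 libraries 2 of the 3 ERAD genes were higher and 1 lower in knockout cells, and 2 were higher and none lower in wild-type cells. The shares of all genes were again 47.1% and 66.7%, and 3 genes are too few to set against them. Herpud1, a scaffold of the ERAD complex, stood at 111, 110.0, 105, 78.3 and 91.0 CPM in knockout vehicle libraries, against 85.2, 86.1, 94.8, 59.7 and 55.2 CPM in wild-type vehicle libraries. The groups overlapped across batches, and the knockout library was higher within each batch. Herpud1 was higher in knockout cells under vehicle and with IFNγ, by 0.39 ± 0.12 and 0.36 ± 0.12 log2 (adjusted p = 0.0202 and 0.0256). These calls were lost in 6 and 8 of 19 alternative settings. Sel1l, the adaptor of the HRD1 ligase, was not called in any comparison, with differences from −0.05 to 0.22 log2.

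Whether the lines responded differently to IFNγ was tested as an interaction, with the wild-type response subtracted from the knockout response. It passed for 7 of the 38 genes, 2 higher and 5 lower, with a median of −0.03 log2, where 6.5% of all genes passed, 3.64% higher and 2.86% lower, around a median of 0.02 log2. All 8 ISR factors had a negative difference, from −0.81 to −1.78 log2, with a median of −1.004, and 4 of them passed: Ddit4 at −1.78 ± 0.46, Ddit3 at −1.72 ± 0.37, Atf4 at −1.24 ± 0.24 and Trib3 at −0.97 ± 0.26 log2 (edgeR adjusted p = 0.0263, 0.00896, 0.00435 and 0.0303). Of 29 alternative settings the call was lost in 11 for Ddit4, 9 for Trib3, 2 for Ddit3 and 1 for Atf4. In 7 of the 8 it was negative in each of the 3 batches, and 13 of the 38 genes kept 1 sign, against 31% of all genes. The interaction shares its vehicle libraries with the vehicle comparison above, in which 7 of the 8 were higher in knockout cells. With IFNγ, Ddit3 differed between the lines by −0.26 ± 0.26 log2 and Atf4 by −0.39 ± 0.17 log2 (adjusted p = 0.441 and 0.0709), Trib3 was higher in knockout cells by 0.64 ± 0.18 log2 (adjusted p = 0.00945) and Ddit4 lower, at −1.41 ± 0.34 log2 (adjusted p = 0.00273).

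The fifth lower response was that of Slc3a2, at −1.61 ± 0.18 log2 (edgeR adjusted p = 4.88e-05), with −1.74, −1.05 and −1.71 log2 in batches 1, 2 and 3. Phgdh and Dnajc3 had the higher ones, at 1.47 ± 0.40 and 0.62 ± 0.17 log2 (adjusted p = 0.0328 and 0.0325), and neither kept its sign in all batches, with 1.84, 1.32 and −0.20 log2 for Phgdh and 0.92, −0.19 and 0.52 log2 for Dnajc3. Their calls were lost in 14 of 29 alternative settings for Phgdh and 18 for Dnajc3. Of the sensors and Hspa5, the differences were −0.69 for Ern1, −0.36 for Atf6, 0.27 for Xbp1, 0.18 for Eif2ak3, −0.17 for Eif2ak4 and 0.12 log2 for Hspa5, with edgeR adjusted p from 0.0732 to 0.844. Without the 4 IFNγ libraries of batches 2 and 3 the interaction passed for 22 of the 38 genes, 13 higher and 9 lower, among them 8 higher metabolic genes and 6 lower ISR factors, where 38% of all genes passed. In batches 2 and 3 alone it passed for none of the 38, where 0.847% of all genes passed.

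**Figure D4:**
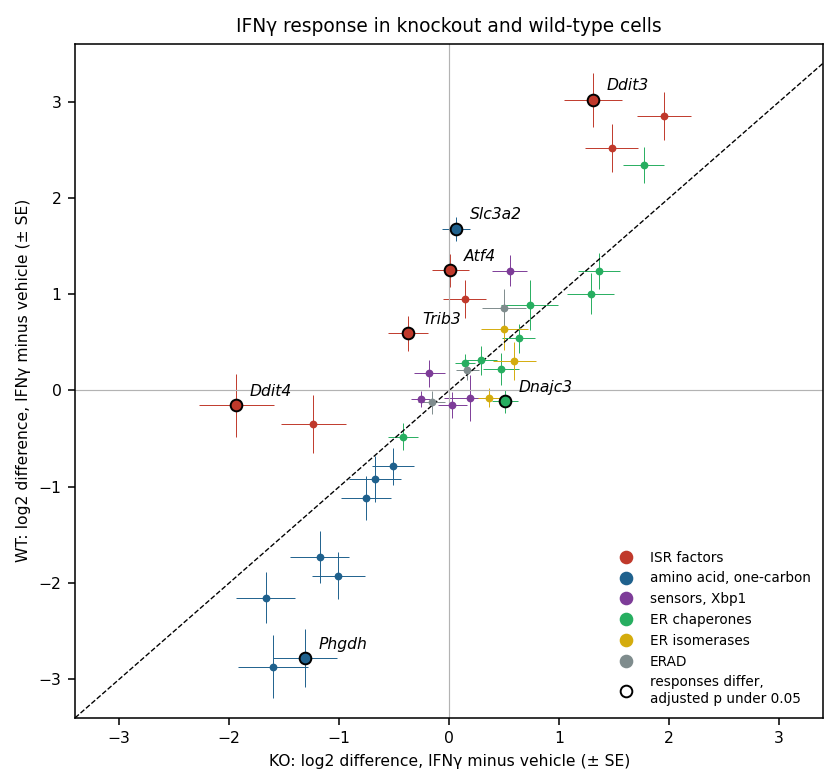
Response to IFNγ of the 38 genes in knockout cells (horizontal) and wild-type cells (vertical), as log2 difference of IFNγ minus vehicle ± SE, coloured by role, with a dashed line where both are equal. The 7 named genes with a black rim had responses that differed by edgeR's interaction test, and all 8 ISR factors lie above the line.

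Other genes of the 2 pathways, taken from lists of 30 ISR genes and 47 genes of the unfolded protein response, were tested for 27 and 45 genes. Cbs, Fgf21, Vldlr, Creb3l2 and Derl3 did not pass the filter. With IFNγ, 5 of the 27 ISR genes rose and 12 fell in knockout cells, and 8 rose and 13 fell in wild-type cells, where 43.2% and 58.9% of all genes passed. Their medians were −0.24 and −0.29 log2. Without the 4 IFNγ libraries of batches 2 and 3, 7 were higher and 13 lower in knockout cells and 7 higher and 14 lower in wild-type cells, against 47.1% and 66.7% of all genes. Gdf15, a stress-induced cytokine, rose by 2.41 ± 0.51 log2 in knockout and 4.82 ± 0.56 log2 in wild-type cells, and Gadd45a, a growth arrest gene, by 1.37 ± 0.29 and 2.68 ± 0.30 log2. Slc7a11, the cystine transporter, rose by 1.24 ± 0.17 log2 in knockout and 1.04 ± 0.17 log2 in wild-type cells. Nupr1, a stress-induced nuclear protein, rose in wild-type cells by 2.16 ± 0.30 log2 and stood at 0.48 ± 0.29 log2 in knockout cells (edgeR adjusted p = 6.51e-06 and 0.193). Slc1a4, a neutral amino acid transporter, fell, at −1.69 ± 0.23 log2 in knockout and −1.77 ± 0.23 log2 in wild-type cells. Stc2, a secreted glycoprotein, and Slc7a1, a cationic amino acid transporter, fell in both lines, Stc2 at −2.24 ± 0.30 log2 in knockout and −2.33 ± 0.32 log2 in wild-type cells and Slc7a1 at −0.93 ± 0.14 and −0.92 ± 0.14 log2. So did Mthfd1l, of mitochondrial one-carbon metabolism, at −1.33 ± 0.21 and −2.57 ± 0.22 log2, and Psph, the last enzyme of serine synthesis, at −1.08 ± 0.24 and −2.30 ± 0.25 log2. Apart from Nupr1 in knockout cells, edgeR's adjusted p of these genes lay between 1.08e-08 and 0.00127.

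Between the lines, 7 of the 27 ISR genes were higher and 2 lower in knockout cells under vehicle, and 14 were higher and 7 lower with IFNγ, where 27.3% and 39% of all genes passed. Their medians were 0.27 and 0.37 log2. Leaving out the 4 IFNγ libraries, 16 were higher and 5 lower under vehicle and 16 higher and 8 lower with IFNγ, against 53.8% and 58.5% of all genes. Stc2 and Slc7a1 were higher in knockout cells under both treatments, Stc2 by 1.63 ± 0.29 log2 under vehicle and 1.71 ± 0.31 log2 with IFNγ and Slc7a1 by 0.82 ± 0.14 and 0.82 ± 0.14 log2 (edgeR adjusted p from 0.000134 to 0.000301). Cebpg, which encodes a partner of ATF4, was higher under vehicle by 0.94 ± 0.13 log2 and stood at 0.27 ± 0.13 log2 with IFNγ (adjusted p = 1.71e-05 and 0.111). Cth, the cystathionine gamma-lyase of cysteine synthesis, had 0 reads in all 10 knockout libraries, against 94 to 179 reads per wild-type vehicle library and 6 to 63 reads per wild-type IFNγ library. Set against 3 counts summed over a group as the floor, it was at least 304-fold lower in knockout cells under vehicle and at least 61.3-fold lower with IFNγ. Slc7a3, another cationic amino acid transporter, was lower under both treatments (edgeR adjusted p = 0.00424 under vehicle and 0.000186 with IFNγ). It had 0 to 4 reads per knockout vehicle library, against 6 to 14 per wild-type vehicle library, and 3 to 8 per knockout IFNγ library, against 10 to 88 per wild-type IFNγ library, and with so few reads no fold is given. With IFNγ Psph and Mthfd1l were higher in knockout cells by 1.62 ± 0.24 and 1.38 ± 0.21 log2, and Nupr1 lower, at −1.56 ± 0.30 log2, with edgeR adjusted p from 3.25e-05 to 0.000348. Under vehicle these 3 stood at 0.39, 0.14 and 0.12 log2 (adjusted p = 0.231, 0.661 and 0.801). The interaction passed for 5 of the 27, where 6.5% of all genes passed, and without the 4 IFNγ libraries for 14, 8 higher and 6 lower, where 38% did. Of the 5, Mthfd1l and Psph were higher, at 1.24 and 1.22 log2, and Gdf15, Nupr1 and Cebpg lower, at −2.41, −1.68 and −0.67 log2 (edgeR adjusted p from 0.0141 to 0.0399).

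Of the 45 other genes of the unfolded protein response, 18 rose and 5 fell with IFNγ in knockout cells, and 19 rose and 14 fell in wild-type cells, where 43.2% and 58.9% of all genes passed. Their medians were 0.08 and 0.13 log2. With the 4 IFNγ libraries of batches 2 and 3 left out, 20 were higher and 7 lower in knockout cells and 15 higher and 17 lower in wild-type cells, against 47.1% and 66.7% of all genes. Creb3, an ER-bound transcription factor cut like ATF6, rose by 1.37 ± 0.12 log2 in knockout and 1.63 ± 0.13 log2 in wild-type cells, and Syvn1, the HRD1 ligase of ERAD, by 0.95 ± 0.12 and 1.29 ± 0.12 log2. Edem2, a relative of Edem1, rose by 0.80 ± 0.12 log2 in knockout and 0.64 ± 0.12 log2 in wild-type cells, and the ER lectin Erlec1 by 0.71 ± 0.12 and 1.11 ± 0.13 log2. Mbtps1, the site-1 protease that cuts ATF6, fell, at −0.74 ± 0.13 log2 in knockout and −1.45 ± 0.13 log2 in wild-type cells, and the isomerase family member Txndc5 likewise, at −0.66 ± 0.12 and −1.04 ± 0.12 log2. The site-2 protease Mbtps2 fell in both lines, at −0.58 ± 0.11 log2 in knockout and −0.71 ± 0.11 log2 in wild-type cells, and so did the signal peptidase subunit Spcs3, at −0.34 ± 0.12 and −1.07 ± 0.12 log2. edgeR's adjusted p was 0.0321 for Spcs3 in knockout cells and 0.000429 or less for the others.

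Between the lines 6 of the 45 were higher and 6 lower in knockout cells under vehicle, and 14 were higher and 9 lower with IFNγ, where 27.3% and 39% of all genes passed. Their medians were 0.07 and 0.06 log2. The counts without the 4 IFNγ libraries were 15 higher and 9 lower under vehicle and 19 higher and 9 lower with IFNγ, against 53.8% and 58.5% of all genes. Creb3 was higher in knockout cells under both treatments, by 1.20 ± 0.12 log2 under vehicle and 0.94 ± 0.12 log2 with IFNγ, and so was the translocon subunit Sec61b, by 0.75 ± 0.16 and 1.24 ± 0.17 log2. The ATPase Vcp, which extracts ERAD substrates, was also higher under both, by 0.78 ± 0.14 and 0.97 ± 0.14 log2. Spcs3 was higher with IFNγ by 1.00 ± 0.12 log2 and stood at 0.26 ± 0.12 log2 under vehicle. The translocon-associated Ssr3 was lower under both treatments, at −0.40 ± 0.11 log2 under vehicle and −0.52 ± 0.11 log2 with IFNγ, and so were Calu, a calcium-binding ER protein, at −0.66 ± 0.12 and −0.49 ± 0.12 log2, and Sil1, an exchange factor for BiP, at −0.78 ± 0.19 and −0.64 ± 0.18 log2. The ERAD lectin Os9 and Sdf2 were lower with IFNγ, at −1.13 ± 0.18 and −0.84 ± 0.16 log2, and stood at −0.47 and −0.06 log2 under vehicle. edgeR's adjusted p was 0.00901 or less for the calls and 0.121, 0.0516 and 0.814 for Spcs3, Os9 and Sdf2 under vehicle. The interaction passed for 3 of the 45, where 6.5% of all genes passed, and without the 4 IFNγ libraries for 27, 18 higher and 9 lower, where 38% did. Of the 3, Spcs3 and Mbtps1 were higher, at 0.73 and 0.70 log2, and Sdf2 lower, at −0.78 log2 (edgeR adjusted p from 0.0162 to 0.0438).

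The 38 genes varied little among libraries of batch 1 and much across batches. The median coefficient of variation over the 38 was 3.29% in the 3 batch 1 libraries and 28.5% in all 5 for knockout cells with IFNγ, and 3.85% and 27.2% for wild-type cells with IFNγ. For vehicle it was 2.64% and 10.7% in knockout cells and 5.19% and 22.9% in wild-type cells. Ddit4 varied most in both IFNγ groups and in wild-type vehicle cells, with coefficients of 76.2%, 118% and 95.4%, and Xbp1 varied most in knockout vehicle cells, at 38.4%. Groups did not overlap for 21 of the 38 genes with IFNγ in knockout cells and 19 in wild-type cells, against 27.6% and 36.2% of all genes, and for 4 genes between the lines with IFNγ, all lower in knockout cells, against 15.1% of all genes, of which 8.57% were lower. These 4 were Atf4, Slc3a2, Hsp90b1 and Manf, of which Slc3a2 and Manf were called.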

How the data were processed

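Poly(A) RNA-seq of 20 BV-2 libraries was deposited by the authors as raw counts per gene, and per the submitters' processing notes FastQC, Trim Galore, STAR, DESeq2 and the GRCm39 build were used. Which program counted the reads, whether by strand, and on which annotation is not given in the sources used here. Symbols came from GENCODE vM21 and matched 51948 of 56941 gene IDs. Ddit3 matched 2 IDs, of which the one with 0 reads in all libraries was left out. Atf5, Ddit3, Dnajb9, Eif2ak3, Hsp90b1, Manf, Pck2, Pdia3, Pdia4, Pdia6, Ppp1r15a and Shmt2 overlap exons of other genes, so their counts are uncertain. For Hsp90b1, Manf and Pdia4 an overlapping gene lies on the same strand, which counting by strand would not resolve.

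Groups were compared in 1 edgeR 4.0.16 quasi-likelihood fit (R 4.3.3, limma 3.58.1) of group and batch over all 20 libraries, with TMM scaling, filterByExpr, robust dispersion and Benjamini-Hochberg adjustment over 13755 genes, which leaves 14 residual degrees of freedom. The fit was run on counts simulated from its own fitted means and dispersions, with the same batch effect in every group. Such counts hold no batch that differs between treatments, so the run does not check the fit against that. Differences by batch are log2 CPM with a prior count of 2. Exact permutation tests used log2 CPM and all 252 splits, without regard to batch. Alternatives were DESeq2 1.42.0, other scalings, no filter, no batch term, a block by replicate number, batches apart and libraries left out. The pathway members and lists were chosen with earlier results of these data known. Named were the sensors and central factors, the 12 called members with the largest change each way, and up to 3 genes of each other list with the smallest p. Some members outside that rule were named after their values were seen.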

Additional observations from a re-analysis of the deposited data

Results flagged for a closer look

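In 29 of the 152 combinations of a gene and a group, 1 library lay apart from the other 4 of its group by Dixon's criterion. Its rate of 1 in 20, or 7.6, holds only where all 5 libraries of a group are alike. Each group here has 3 libraries of batch 1 and 1 each of batches 2 and 3, and batches differed more than libraries within batch 1. The genes also share the same libraries, so 29 against 7.6 does not measure an excess over chance. Of the 29, 18 were in batch 2, 10 in batch 3 and 1 in batch 1, 22 were in IFNγ groups, and 14 were high and 15 low.

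The batch 2 library of knockout cells with IFNγ accounted for 8. It was high for Ddit3 at 146 CPM, against 60.8 to 74.8 CPM in the other 4 libraries of its group, for Ppp1r15a at 361 CPM against 136 to 155 CPM, for Creld2 at 179 CPM against 85.01 to 102 CPM and for Eif2ak4 at 85.5 CPM against 59.7 to 67.0 CPM. It was low for Atf5 at 48.9 CPM against 79.4 to 90.4 CPM, for Atf6 at 106 CPM against 213 to 226 CPM, for Xbp1 at 76.7 CPM against 188 to 225 CPM and for Hyou1 at 254 CPM against 412 to 426 CPM. The batch 3 library of that group was high for Eif2ak3 at 42.6 CPM against 22.6 to 25.4 CPM and for Edem1 at 776 CPM against 408 to 489 CPM, and low for Pck2 at 56.0 CPM against 164 to 205 CPM.

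In wild-type cells with IFNγ, the batch 2 library was high for Ppp1r15a at 334 CPM, Psat1 at 701 CPM, Eif2ak4 at 75.5 CPM and Creld2 at 126 CPM, and low for Trib3 at 41.4 CPM and Dnajb9 at 39.1 CPM. The batch 3 library was high for Atf4 at 1026 CPM, Eif2ak3 at 31.7 CPM and Xbp1 at 283 CPM, and low for Sdf2l1 at 81.1 CPM. A batch 1 library was low for Mthfd2, at 128 CPM against 137 to 139 CPM. In knockout vehicle cells the batch 2 library was low for Trib3 at 84.4 CPM, Slc7a5 at 245 CPM, Atf6 at 205 CPM and Hyou1 at 282 CPM. The batch 3 library of the same group was high for Atf5 at 87.0 CPM and low for Hspa5 at 1117 CPM and Pdia6 at 170.0 CPM.

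The responses to IFNγ differed between knockout and wild-type cells by edgeR's interaction test for 7 of the 38 genes and 8 genes of the other lists. Among the 38 they were Ddit4 at −1.78, Ddit3 at −1.72, Slc3a2 at −1.61, Atf4 at −1.24, Trib3 at −0.97, Dnajc3 at 0.62 and Phgdh at 1.47 log2, knockout minus wild type. Among the others they were Gdf15 at −2.41, Nupr1 at −1.68, Sdf2 at −0.78, Cebpg at −0.67, Mbtps1 at 0.70, Spcs3 at 0.73, Psph at 1.22 and Mthfd1l at 1.24 log2. All of these genes share the 4 IFNγ libraries that stood apart, and the part of RNA quality in these differences was not tested.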

How the results depend on the processing

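The members called with IFNγ were 13 higher and 12 lower in knockout cells and 16 higher and 9 lower in wild-type cells. They moved to 4 lower in knockout cells with no batch term, 20 higher in knockout cells in batch 1 alone and 15 lower in wild-type cells in batch 1 alone. Between the lines under vehicle, 12 were higher and 3 lower, and this became 7 higher with no batch term, 2 higher and 0 lower in batches 2 and 3 alone, 13 lower in batch 1 alone and 7 lower without the 4 IFNγ libraries of batches 2 and 3. With IFNγ, 11 were higher and 5 lower, against 6 higher and 2 lower with no batch term, 20 higher and 10 lower in batch 1 alone, 0 higher in batches 2 and 3 alone and 18 higher without those 4 libraries. There Xbp1 reversed to 0.17 log2 in batch 1 alone, and in batches 2 and 3 alone Aldh18a1, Dnajb9 and Mthfd2 reversed to −0.65, 0.039 and −0.13 log2. The alternative without the 4 libraries, the counts by role and the other lists without them were added after seeing the data. In the order knockout and wild-type IFNγ response, lines under vehicle, lines with IFNγ and interaction, the share of all genes called was 43.2, 58.9, 27.3, 39 and 6.5% as reported, 56.6, 74, 58.4, 69.3 and 51.3% in batch 1 alone, 29.9, 35.7, 5.93, 13.4 and 0.847% in batches 2 and 3 alone and 28.3, 48.1, 16.9, 26.1 and 1% with no batch term, and the shares without the 4 libraries are given above.

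The interaction counts depended most on the setting. The 2 higher and 5 lower members became 0 higher on plain library totals, 4 higher in DESeq2, 8 lower with no filter beyond 1 read, 0 higher and 2 lower with no batch term, 20 higher and 12 lower in batch 1 alone, 0 and 0 in batches 2 and 3 alone and 13 higher and 9 lower without the 4 libraries. Leaving out 1 library gave 0 to 4 higher, the lowest among others without wild-type IFNγ replicate 1 and the highest without knockout IFNγ replicate 5. It gave 3 to 8 lower, with 3 without wild-type vehicle replicate 1 or 2 or knockout vehicle replicate 1 or 2, and 8 without replicate 4 of either knockout group. Of 29 settings, the calls of Atf4 and Slc3a2 were lost only in batches 2 and 3 alone.

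Named and called members that stayed called in every setting run were 10 of 24 with IFNγ in knockout cells, 16 of 21 in wild-type cells, 2 of 15 between the lines under vehicle, 2 of 16 with IFNγ and 0 of 7 for the interaction. With a replicate block, the interaction gave 0 higher and 3 lower, and the other comparisons 13 and 11, 16 and 9, 10 and 3, and 10 and 5. Same-numbered libraries of batch 1 correlated between −0.04 and 0.04 in their deviations, so the numbers are not taken as a pairing. Why the counts moved was not tested; batches 2 and 3 hold 1 library a group each, and the spread within batch 1 is narrower than across batches.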
